A study of Mus musculus with 56 samples.

Results

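The 10 genes described here encode the αβ T cell receptor complex and the first proteins that relay its signal: Trac, Trbc1, Trbc2, Cd3e, Cd3d, Cd3g, Cd247, Lck, Zap70 and Lat. They were chosen by name, with earlier results of these data known. Their rows were read from 2 count tables that each list 47937 mouse genes. All 10 were found in both tables and all 10 passed the filter on low counts, which kept 13839 genes of the Odc table and 13897 of the Dohh table.

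On a conventional T cell, the α and β chains bind peptide held by an MHC molecule, and each carries a variable part joined to a constant part. The chains have almost no cytoplasmic tail. The signal passes through CD3γ, CD3δ, CD3ε and the ζ chain (encoded by Cd247), whose tails carry tyrosine motifs called ITAMs. The kinase Lck phosphorylates the ITAMs, the kinase ZAP-70 docks on them, and ZAP-70 phosphorylates the membrane adaptor LAT, on which effector complexes assemble.

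The study asked how polyamine synthesis, and hypusine made from the polyamine spermidine, bear on the fidelity of CD4+ T helper lineages. Odc encodes the enzyme that makes putrescine, and Dohh encodes the enzyme that completes hypusine on the translation factor eIF5A. Per the study's methods, which name C57BL/6 for purchased wild-type mice, naive CD4+ T cells were taken from spleen and lymph node by negative selection. This selection leaves the wanted cells unlabelled and removes other types. The naive cells were activated through CD3 and CD28 with IL-2, polarized to TH1, TH2, TH17 or Treg cells, and collected on day 4. Total RNA was sequenced as stranded poly(A) libraries and counted per gene.

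The libraries labelled KO came from mice with loxP-flanked Odc or Dohh that carried CD4Cre, a Cre driven by the CD4 promoter, which is also active before CD8 T cells branch off. The libraries labelled WT came from littermates without Cre. Every library of either genotype was made from cells activated with an antibody to CD3, that is, through the complex described here. The Odc table held 4 libraries per subset and genotype, except 3 in TH2 KO, where the library of replicate 1 was not analysed here. The Dohh table held 3 per subset and genotype. Replicates are taken as separate samples because they are listed separately, and nothing in the labels ties them to separate mice, so p-values measure the spread between these samples.

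Each library held between 5905374 and 12576933 counts. A level is given as CPM, the usual depth-scaled count, with library totals adjusted by TMM, and 3 counts, the limit that a count of 0 allows, correspond to 0.239 to 0.508 CPM, far under any value of a member. Such limits cover counting error only. A pair of Dohh KO libraries stood apart: TH1 replicate 2 had a TMM factor of 0.752 against 0.922 to 1.11 in the other 53 libraries outside this pair, and TH17 replicate 3 had the lowest correlation with the rest of its group (r = 0.939) and the lowest depth of the Dohh table, 6572148 counts. By correlation with the rest of the group, Dohh TH1 KO replicate 3 (r = 0.945) agreed no better than replicate 2 (r = 0.946), which was set apart by its TMM factor. Changes of the members in TH1 and TH17 without this pair are given beside the results they touch. Counts over all exons did not check the deletion. Odc1 stood at 468.6 ± 22.98 to 610.3 ± 125 CPM in the Odc KO groups and 407 ± 60.4 to 733 ± 89.0 CPM in the WT groups, and Dohh at 53.6 ± 10.6 to 99.5 ± 50.2 CPM in the Dohh KO groups against 36.8 ± 1.90 to 40.4 ± 5.41 CPM in the WT groups (SD). The mean Odc1 level was higher in KO than in WT libraries in TH1 (610.3 against 509.9 CPM) and Treg (468.6 against 407 CPM). The mean Dohh level was higher in KO libraries in every subset. Per the study, only some exons of each gene were flanked by loxP, so these totals neither bear out nor contradict the labels. The study examined both deletions by immunoblot of activated T cells, which are not these libraries. Genotypes are called by their labels throughout.

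Markers of other cell types moved with genotype. Of 8 γδ T cell marker names listed, Trgc1, Trgc2 and Trgc4 matched no gene, and γ constant genes entered under their Tcrg-C names. The 5 markers used were Trdc, Tcrg-C1, Tcrg-C2, Tcrg-C4 and Sox13. In every comparison 4 or 5 of these rose, and their summed level ran from 15.1 to 71.1 CPM in the 16 Odc WT libraries, 125 to 701 CPM in the 15 Odc KO libraries, 27.1 to 61.3 CPM in the 12 Dohh WT libraries and 705 to 1541 CPM in the 12 Dohh KO libraries. No γδ marker was at 0 throughout a group. The summed CD8 and NK cell markers (7 listed, 3 to 6 rose) ran from 44.5 to 375 CPM in Odc WT, 96.9 to 725 CPM in Odc KO, 55.0 to 267 CPM in Dohh WT and 651 to 2589 CPM in Dohh KO libraries. Basophil and mast cell markers (9 listed, 7 or 8 rose) summed to 36.0 to 274 CPM in Odc WT, 58.0 to 496 CPM in Odc KO, 57.4 to 318 CPM in Dohh WT and 82.2 to 1372 CPM in Dohh KO. Myeloid markers (8 listed, 1 to 7 rose) summed to 0.875 to 41.5 CPM in Odc WT, 4.23 to 762 CPM in Odc KO, 0.299 to 26.0 CPM in Dohh WT and 2.45 to 11624 CPM in Dohh KO, the last in TH17 replicate 3. Itgam was at 0 in every Dohh library. S100a8, S100a9 and Mpo were at 0 in TH1 WT of both tables and Adgre1 in that of the Dohh table. Mpo was at 0 in Odc TH17 and Dohh Treg WT, Ms4a2 in Odc TH1 and Dohh TH2 WT, Fcer1a in Odc TH2 WT, Prss34 in Dohh TH1 WT, Ncr1 in TH17 WT of both tables, Klrb1c in Dohh TH17 WT and Pax5 in Dohh Treg KO. B cell markers (6 listed, 0 to 6 rose) summed to 34.4 to 251 CPM in Odc WT, 114 to 1246 CPM in Odc KO, 49.2 to 294 CPM in Dohh WT and 11.9 to 848 CPM in Dohh KO. The T cell markers Cd4, Cd2, Cd5, Cd28, Thy1 and Cd6 were detected in every group and summed to 2681 to 4167 CPM in Odc WT, 2213 to 3786 CPM in Odc KO, 3184 to 3935 CPM in Dohh WT and 1579 to 3437 CPM in Dohh KO. In each Dohh comparison 5 of the 6 fell and 1 rose, and in the Odc comparisons 1 to 4 fell and 1 rose. Cd4, which defines the labelled cells, stood at 661 to 968 CPM in the Dohh WT libraries and 22.1 to 79.7 CPM in the Dohh KO libraries. Falls among the markers of other cell types were few: 1 basophil and mast cell marker fell in Odc TH2 and in Dohh TH1, TH17 and Treg, 1 CD8 and NK marker in Odc TH2 and in Dohh TH1 and TH2, and 1 B cell marker in Dohh TH1. The basophil and mast cell list held Ms4a2, Fcer1a, Cpa3, Mcpt8, Prss34, Gata2, Hdc, Cyp11a1 and Kit. Its sum was lower in Odc TH2 KO (90.6 to 158 CPM) than in WT libraries (142 to 274 CPM), with overlap. Of its 9 markers 7 rose there and 1 fell, so the sum did not follow most of them. The B cell sum was lower in Dohh TH1 KO (11.9 to 36.5 CPM) than in WT libraries (49.2 to 65.4 CPM). The part of these markers in the results below was not tested. In bulk RNA, fewer cells of a type and less RNA per cell cannot be told apart.

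The positions are those of GENCODE M21 on GRCm38, the build the files use as mm10. The CD3 genes form a cluster on chromosome 9: Cd3g at chr9:44969572-44980431 on the minus strand, Cd3d at chr9:44981786-44987339 on the plus strand and Cd3e at chr9:44998740-45009627 on the minus strand. Trac lies at chr14:54220521-54224206 (plus), Trbc1 at chr6:41538218-41539881 (plus) and Trbc2 at chr6:41546730-41548352 (plus). Cd247 lies at chr1:165788681-165877277 (plus), Zap70 at chr1:36761798-36782818 (plus), Lck at chr4:129548344-129573641 (minus) and Lat at chr7:126363824-126369570 (minus). Levels were summed over the exons of each gene. Cd3e overlaps the antisense gene Gm48719, and Cd247 overlaps Gm16565 on its own strand and Pou2f1 on the other. The strand setting of the counting is not given in the sources used here, so reads of Cd3e and Cd247 may not be separable from those of their neighbours.

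Trbc1 and Trbc2 are near-identical copies, and their sequences show where a read can tell them apart. Over 518 coding bases they differed at 23 (95.6% identity), of which 1 lay in the 375 bases of the first exon, at coding position 260, and 22 in the 143 bases of exons 2 to 4. The longest run without a difference was 259 bases. Coding bases 376 to 518, read from the GENCODE M21 transcripts, are shown 5′ to 3′ with the differing bases in capitals.
Trbc1: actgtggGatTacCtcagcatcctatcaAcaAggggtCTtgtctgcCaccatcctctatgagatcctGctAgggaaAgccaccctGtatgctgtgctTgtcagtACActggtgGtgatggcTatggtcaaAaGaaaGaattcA
Trbc2: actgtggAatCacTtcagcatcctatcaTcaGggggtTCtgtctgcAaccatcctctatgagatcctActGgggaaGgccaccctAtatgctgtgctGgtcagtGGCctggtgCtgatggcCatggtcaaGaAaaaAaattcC
Reads that fall wholly in the first exon could be split between the copies or discarded, and how the counting treated them is not given in the sources used here. The separate Trbc1 and Trbc2 levels are uncertain for that reason.

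Cd3g and Cd3d are transcribed away from each other, with 1355 bases between their gene starts. Their promoters are shown because the levels of these genes followed each other most closely of all 45 member pairs in both tables (Pearson r = 0.97 over 31 Odc libraries and 0.81 over 24 Dohh libraries, which share subset and genotype differences). Each sequence is the 250 bases before the gene start in RefSeq (GRCm38.p6), 5′ to 3′ along the gene's own strand, with every GGAA or its complement TTCC, the core bound by ETS factors, in capitals. The windows are chr9:44980432-44980681 on the minus strand for Cd3g and chr9:44981536-44981785 on the plus strand for Cd3d.
Cd3g: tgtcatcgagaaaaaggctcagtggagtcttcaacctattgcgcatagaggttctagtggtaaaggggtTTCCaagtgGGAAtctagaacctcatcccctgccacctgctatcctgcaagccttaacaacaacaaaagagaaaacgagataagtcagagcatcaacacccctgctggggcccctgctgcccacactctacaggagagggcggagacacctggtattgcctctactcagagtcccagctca
Cd3d: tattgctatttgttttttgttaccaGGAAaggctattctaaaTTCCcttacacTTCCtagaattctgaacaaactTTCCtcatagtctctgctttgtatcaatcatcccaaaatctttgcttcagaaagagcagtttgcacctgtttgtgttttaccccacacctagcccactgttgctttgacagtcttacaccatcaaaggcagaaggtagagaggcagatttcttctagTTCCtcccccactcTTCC
The core occurred 2 times in the Cd3g window and 6 times in the Cd3d window, and 93.4% of 32851 promoter windows of this length held at least 1. On either strand, the E-box CANNTG occurred 3 times for Cd3g and 1 time for Cd3d (66.2% of windows), the TCF/LEF core CTTTGA 0 and 2 times (13.8%), and the RUNX core TGTGGT 0 times in both (14.05%). The searches overlapped freely and a match describes letters only. Promoters of Cd3e, Cd247, Lck, Zap70 and Lat were also listed, and Trac, Trbc1 and Trbc2 were not.

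In WT cells the receptor constant chains were the highest members per length and the ζ chain the lowest. On the scale of CPM per kilobase of exon, averaged over the 4 WT groups of the Odc table, the order was Trac 428, Trbc2 406, Trbc1 295, Cd3d 229, Lck 185, Cd3g 111, Lat 109, Zap70 90.6, Cd3e 56.98 and Cd247 41.4. In the Dohh table the order was Trbc2 599.96, Trac 459, Trbc1 376, Cd3d 307, Lck 239.7, Lat 139, Zap70 131, Cd3g 117, Cd3e 55.8 and Cd247 38.1. The ranges of the WT group means overlapped in both tables for Trac and Trbc2, for Trbc1 and Cd3d, and among Cd3g, Lat and Zap70. They also overlapped for Cd3d and Lck and for Cd3e and Cd247 in the Odc table, and for Trac and Trbc1 in the Dohh table. These neighbours were not separated. Exon length here is the union of all annotated isoforms, which lowers the value of genes with long alternative ends.

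**Figure D1:**
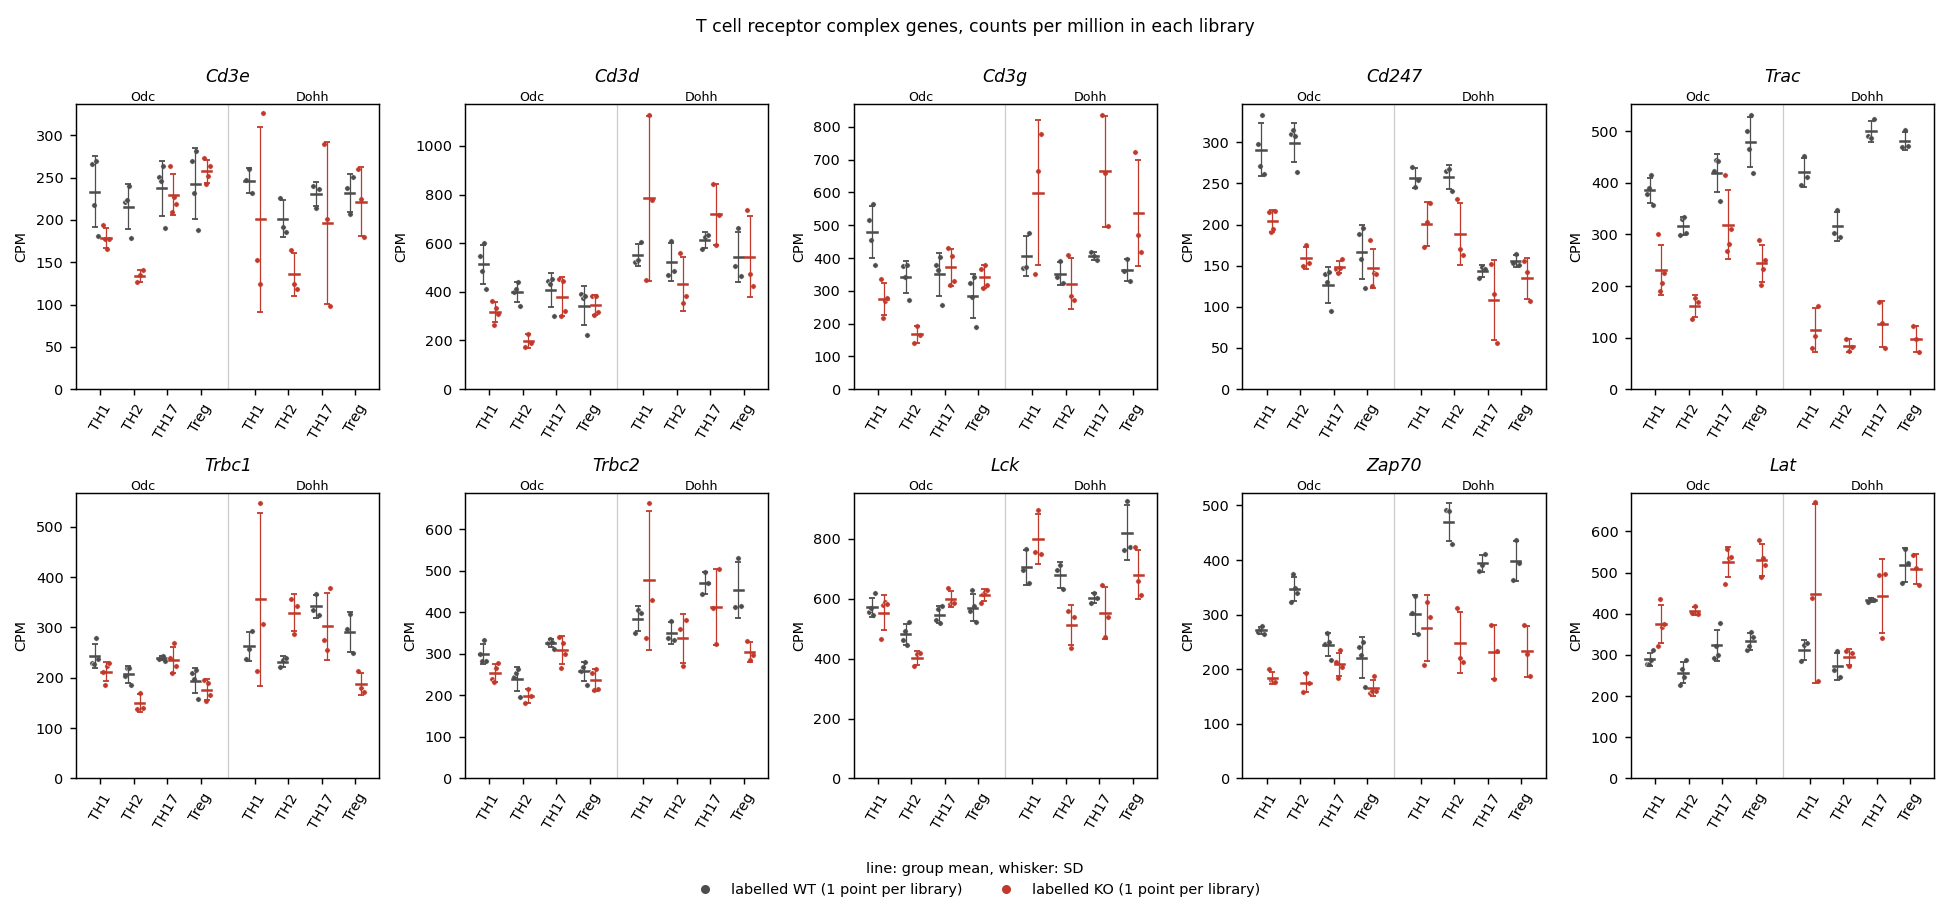
Level of each of the 10 genes in CPM (y axis, linear, from 0) in every library, by subset (x axis) and table (left and right of the grey line), with labelled WT in grey and labelled KO in red; lines are group means and whiskers the SD. Trac was lower in every Dohh KO library (71.7 to 169 CPM) than in any Dohh WT library (296 to 524 CPM), and Lat was higher in every Odc KO library than in any Odc WT library of the same subset.

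Among WT subsets of the Odc table, Cd247 varied most. It stood at 291 ± 32.2 CPM in TH1, 299 ± 23.9 in TH2, 127 ± 22.1 in TH17 and 166 ± 33.1 in Treg cells of the Odc table (SD, n = 4), and at 257 ± 12.3, 257 ± 14.9, 143 ± 7.08 and 156 ± 7.06 CPM in the Dohh table (n = 3). TH1 and TH2 libraries lay above all TH17 and Treg libraries in both tables. The log2 difference of TH17 from TH1 was -1.20 (SE 0.13, adjusted p = 3.46e-08) for Odc WT and -0.84 (SE 0.23, adjusted p = 0.0103) for Dohh WT, while TH1 and TH2 did not differ past the test in either table. Adjusted p here and below comes from the quasi-likelihood F test of edgeR, adjusted by Benjamini-Hochberg over all genes tested, and a gene "passed the test" at an adjusted p under 0.05.

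Zap70 had its highest WT mean in TH2. Its WT level was 271 ± 7.004, 347 ± 21.3, 245 ± 20.4 and 221 ± 37.6 CPM in TH1, TH2, TH17 and Treg of the Odc table and 301 ± 35.3, 470.1 ± 35.2, 394 ± 15.8 and 398 ± 36.3 CPM in the Dohh table. TH2 exceeded TH1 by 0.36 on the log2 scale (SE 0.10, adjusted p = 0.0110) in the Odc table and by 0.65 (SE 0.19, adjusted p = 0.0350) in the Dohh table. The neighbours in that order in the Odc table, TH1, TH17 and Treg, were closer, and only TH1 and Treg differed past the test (log2 -0.29, SE 0.10, adjusted p = 0.0184). Among Dohh WT subsets Zap70 did not pass across all 4 (adjusted p = 0.0641), and TH2 was not separated from TH17 (adjusted p = 0.370) or Treg (adjusted p = 0.403). Lat had its lowest WT mean in TH2 cells, at 257 ± 25.6 CPM against 333 ± 20.8 CPM in Treg of the Odc table (log2 0.38, SE 0.09, adjusted p = 0.00121) and 273 ± 32.8 against 518 ± 41.6 CPM in the Dohh table (log2 0.92, SE 0.23, adjusted p = 0.00446). TH2 and TH1 were not separated for Lat (adjusted p = 0.204 and 0.681). Trac was likewise lower in TH2 than in TH17, by 0.40 (SE 0.13, adjusted p = 0.0146) and 0.66 (SE 0.24, adjusted p = 0.0444). Across all 4 Dohh WT subsets Trac did not pass (adjusted p = 0.103). Cd3e did not pass the test across WT subsets in either table (adjusted p = 0.599 and 0.862).

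Over the 4 WT subsets, 9 of 10 members passed in the Odc table, where 71.1% of all genes did, and 2 of 10 (Cd247 and Lat) in the Dohh table, where 40.1% did. For the pairs TH2 with TH1, TH17 with TH1, Treg with TH1, TH17 with TH2, Treg with TH2 and Treg with TH17, the members past the test numbered 4, 2, 5, 5, 5 and 3 in the Odc table beside 21.5%, 42%, 48.9%, 47.8%, 51.3% and 34.5% of all genes. In the Dohh table they numbered 1, 1, 2, 3, 2 and 0 beside 10.6%, 22.4%, 26.3%, 24.9%, 28.6% and 11.1%. Without Dohh TH1 KO replicate 2, a library of none of these groups that enters the estimate of spread, 4 members passed across the Dohh WT subsets, and 6 without both libraries that stood apart. The share of all genes in these refits is not given here, and 40.1% is that of the fit with every library.

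Between genotypes, more members passed as lower with Odc deletion in TH2 and TH1 cells than in TH17 and Treg cells. Counts of calls cannot be ranked between the tables. The Dohh groups held fewer libraries, or as many in TH2 KO, and the SEs were larger (Cd3e in TH1, 0.13 for Odc and 0.30 for Dohh). With Dohh deletion Trac fell in all 4 subsets and Zap70 in 3. Odc KO cells had 7 members lower and 1 higher in TH1, 9 lower and 1 higher in TH2, 1 lower and 1 higher in TH17, and 2 lower and 1 higher in Treg. The shares of all genes that were lower were 27.7%, 29.3%, 22.2% and 26.9%, and those higher 29.1%, 29.9%, 25.6% and 32.9%. The member that was higher was Lat each time. In Dohh KO cells, 1, 3, 2 and 4 members were lower in TH1, TH2, TH17 and Treg and 0, 0, 1 and 0 higher, beside 24.1%, 21.5%, 24.9% and 25% of all genes lower and 25.9%, 23.8%, 27% and 28.4% higher. The counts in TH17 and Treg of the Odc table and in TH1, TH2 and TH17 of the Dohh table were thus near the share over all genes or below it. The median log2 fold change of the 10 members was -0.45, -0.80, -0.03 and -0.06 in the Odc comparisons, where that of all genes was 0.02, -0.0019, 0.05 and 0.07, and 0.25, -0.34, -0.18 and -0.24 in the Dohh comparisons, where that of all genes was 0.01, 0.02, 0.01 and 0.02.

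**Figure D2:**
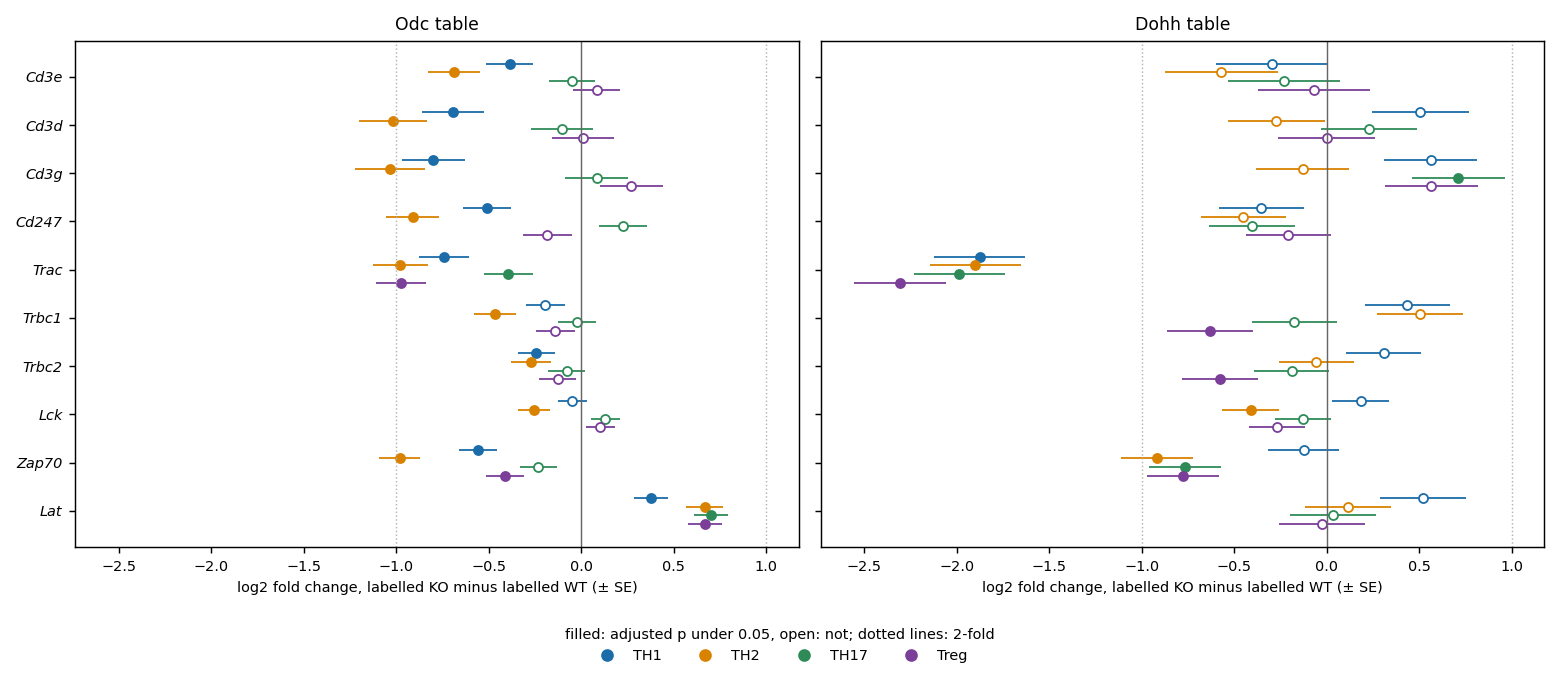
Log2 fold change of each gene (x axis, labelled KO minus labelled WT, whiskers ± SE) in TH1, TH2, TH17 and Treg cells for the Odc table (left) and the Dohh table (right); filled points had an adjusted p under 0.05 and dotted lines mark 2-fold. Trac lies between -1.88 and -2.31 in all 4 Dohh comparisons, and Lat between 0.38 and 0.70 in all 4 Odc comparisons.

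Few of these changes passed 2-fold. Of the Odc comparisons, 0, 2, 0 and 0 members were past the test and 2-fold, beside 21.4%, 25.1%, 15.6% and 24% of all genes, and for Dohh, Trac alone in each subset, beside 29.1%, 25.9%, 31.4% and 32.7%. The 2 members in Odc TH2 cells, Cd3d and Cd3g, sat at the limit: the count was 0 without KO replicate 2, and 4 without KO replicate 3 or without WT replicate 1.

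Trac, the only α constant gene, fell in all 8 comparisons. In Odc TH1 cells it stood at 378, 391, 415 and 357 CPM in the WT libraries and at 300.4, 189, 207 and 226 CPM in the KO libraries. In TH2 the WT values were 299, 331, 333 and 304 CPM and the KO values 137, 176 and 169.6 CPM. Neither pair of groups overlapped, and KO replicate 1 was the highest KO library in TH1. That library also had the lowest correlation with the rest of its group in the Odc table (r = 0.966). Its B cell marker sum was 1246 CPM, against 273 to 334 CPM in the other TH1 KO libraries. Its γδ marker sum was 131 CPM, against 309 to 362 CPM in those libraries. The log2 fold changes were -0.74 (SE 0.14, adjusted p = 6.17e-05) and -0.98 (SE 0.15, adjusted p = 6.55e-06).

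The TH17 cells of the Odc table changed least, with WT libraries at 423, 445, 442 and 365 CPM and KO libraries at 416, 268, 281 and 311 CPM. These groups overlapped through KO replicate 1, and the log2 fold change of -0.39 (SE 0.13, adjusted p = 0.0180) lost its call without KO replicate 2 (adjusted p = 0.0752) or KO replicate 3 (adjusted p = 0.0643). Treg libraries stood at 501, 465, 531 and 420.1 CPM in WT and 289, 202, 234 and 249.6 CPM in KO, with no overlap (log2 -0.98, SE 0.14, adjusted p = 1.06e-06).

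Trac also fell in each Dohh comparison. TH1 libraries stood at 397, 452 and 412 CPM in WT and 79.1, 103 and 161 CPM in KO. TH2 libraries stood at 303, 348 and 296 CPM in WT and 97.6, 74.0 and 82.2 CPM in KO. In no subset did the genotypes overlap, and the log2 fold changes were -1.88 (SE 0.25, adjusted p = 4.27e-06) and -1.90 (SE 0.25, adjusted p = 4.32e-06), a 3.67-fold and 3.73-fold lower level. TH17 libraries stood at 490.4, 487 and 524 CPM in WT and 169, 128 and 80.7 CPM in KO (log2 -1.99, SE 0.25, adjusted p = 1.94e-06). In Treg they stood at 470.5, 502 and 471 CPM in WT and 122, 97.7 and 71.7 CPM in KO (log2 -2.31, SE 0.25, adjusted p = 2.23e-07), a 4.95-fold lower level. Without the libraries that stood apart, Trac changed by -1.81 in TH1 (adjusted p = 4.35e-06) and -1.74 in TH17 (adjusted p = 5.45e-06).

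The fitted log2 fold changes of the β constant genes were smaller in size than that of Trac in each of the 8 comparisons, and the difference between the genes was not tested. Trbc1 and Trbc2 in the Odc table changed by -0.02 to -0.47 on the log2 scale, and Trbc1 passed the test in TH2 (log2 -0.47, SE 0.11, adjusted p = 0.00101), with WT libraries at 203, 219, 220.1 and 185 CPM and KO libraries at 139, 170.4 and 139.9 CPM, which did not overlap. Trbc2 passed in TH1 (log2 -0.24, SE 0.10, adjusted p = 0.0389) and TH2 (log2 -0.27, SE 0.11, adjusted p = 0.0346). Leaving out KO replicate 1, KO replicate 2 or WT replicate 3 in TH1 ended the first call (adjusted p = 0.0668 to 0.121), and leaving out KO replicate 2, KO replicate 4, WT replicate 2 or WT replicate 3 in TH2 ended the second (adjusted p = 0.0554 to 0.160). In Dohh Treg cells both fell, Trbc1 from 291 ± 39.1 to 188 ± 22.2 CPM (log2 -0.63, SE 0.23, adjusted p = 0.0255) and Trbc2 from 454 ± 67.1 to 304 ± 23.7 CPM (log2 -0.58, SE 0.20, adjusted p = 0.0222; SD, n = 3). Without Treg KO replicate 2 or WT replicate 2 neither passed (adjusted p = 0.0530 to 0.0740), and Trbc1 did not pass without KO replicate 3 (adjusted p = 0.0692). In the other Dohh subsets the log2 fold changes of -0.19 to 0.50 (SE 0.20 to 0.23) did not pass the test.

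The ratio of Trac to summed Trbc1 and Trbc2 within a library was computed after the values were seen and is given with no test. It ran from 0.668 to 1.09 in the Odc WT libraries, 0.424 to 0.716 in Odc KO, 0.516 to 0.708 in Dohh WT and 0.0848 to 0.247 in Dohh KO. Within a subset, the KO libraries were all lower than the WT libraries, except in Odc TH17, where the KO range was 0.472 to 0.716 and the WT range 0.669 to 0.772.

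**Figure D3:**
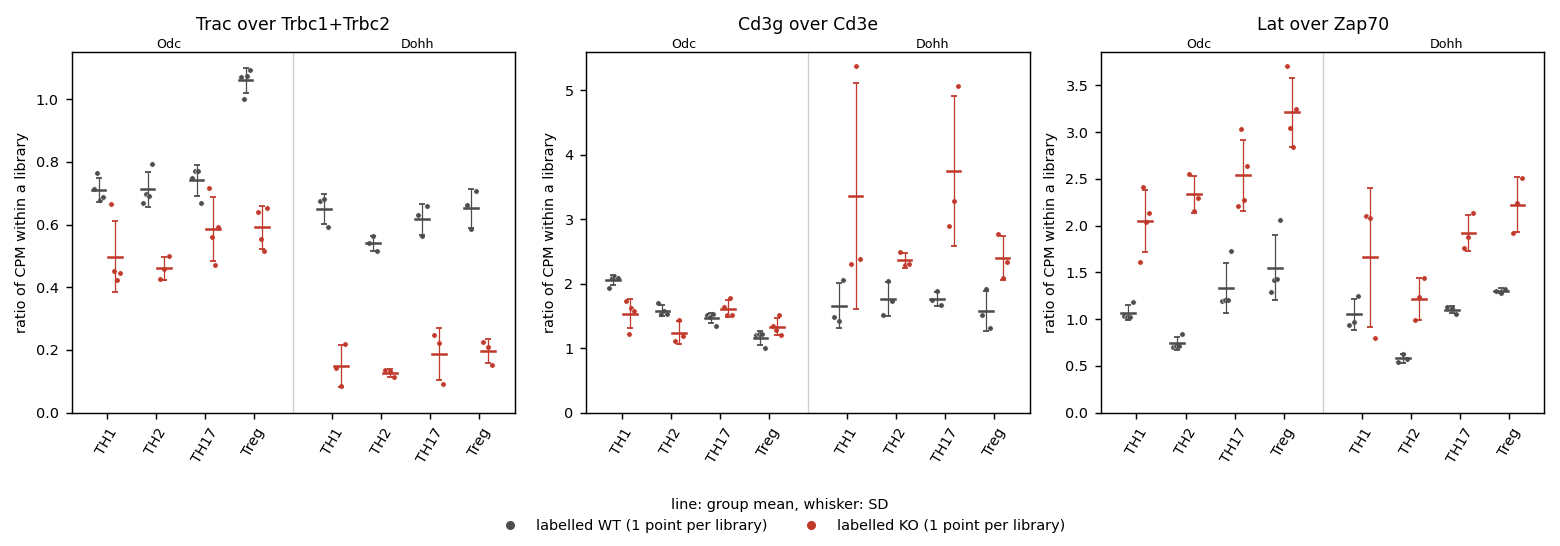
Ratios of CPM within each library (y axis, linear, from 0) by subset and table, with labelled WT in grey and labelled KO in red, lines for group means and whiskers for the SD. The Trac ratio of every Dohh KO library (0.0848 to 0.247) lies under that of every Dohh WT library (0.516 to 0.708), and the Cd3g to Cd3e ratio is 2.09 or higher in the Dohh KO libraries.

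The variable genes that are spliced to these constant genes were examined next, a choice made after the values of the members were seen. The 108 Trav genes summed to 98.3 ± 15.2 CPM in Odc TH1 WT and 47.6 ± 10.6 CPM in KO libraries, and to 129 ± 14.8 and 56.4 ± 12.57 CPM in Odc Treg libraries (SD, n = 4). In the Dohh table they summed to 114 ± 15.6 and 36.5 ± 32.3 CPM in TH1, and to 138 ± 15.2 and 49.7 ± 24.8 CPM in Treg libraries (n = 3). The lowest were the pair that stood apart, at 8.995 CPM in TH1 replicate 2 and 4.38 CPM in TH17 replicate 3, and Trav was below the WT libraries in every other Dohh KO library too (24.1 to 74.9 CPM). Sums of the 22 Trbv genes fell likewise, from 274 ± 38.8 to 164 ± 13.9 CPM in Odc TH1, 256 ± 36.1 to 137 ± 26.8 CPM in Odc Treg, 289 ± 12.8 to 77.1 ± 43.2 CPM in Dohh TH1 and 350.3 ± 31.3 to 63.2 ± 17.2 CPM in Dohh Treg. The ratio of mean KO to mean WT levels was 0.391 to 0.654 for Trav and 0.533 to 0.673 for Trbv in the Odc table, and 0.237 to 0.360 and 0.167 to 0.267 in the Dohh table. For the summed β constant genes it was 0.781 to 0.964 and 0.661 to 1.29. For the 13 joining genes Trbj it was 0.541 to 0.664 in the Odc table and 0.528 to 0.999 in the Dohh table. The Trbv ratio was thus lower than that of the β constant genes in each Dohh subset, a difference that was not tested.

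Single variable genes were tested in the fit over all genes. Of 40 Trav genes past the filter in the Odc table, 30, 28, 21 and 35 fell in TH1, TH2, TH17 and Treg, and 2, 1, 3 and 3 rose. Of 51 in the Dohh table, 38, 39, 44 and 43 fell and 3, 2, 2 and 3 rose. Every Trav gene that rose was one of Trav15-2-dv6-2, Trav15-1-dv6-1 and Trav13-4-dv7, whose names mark V segments shared with the δ chain, and 7 such shared segments were tested in each table. Of these 7, 2 fell in Odc TH1 and 3 in each of the other 7 comparisons, among them Trav6-7-dv9 and Trav4-4-dv10 in every Dohh comparison. Trav15-2-dv6-2 rose in all 8 comparisons, by 1.19 to 3.72 on the log2 scale. Of 21 Trbv genes tested in the Odc table, 16, 15, 12 and 19 fell, and of 20 in the Dohh table, 15, 18, 19 and 19 fell.

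The γ and δ chain genes went the other way. The 10 Tcrg genes summed to 12.2 to 27.04 CPM on average in the Odc WT groups and 80.5 to 431 CPM in the KO groups, and to 20.3 to 27.1 and 435 to 972 CPM in the Dohh groups. The ratio of KO to WT means was 6.62 to 21.7 in the Odc and 19.4 to 47.9 in the Dohh table. The 6 Trdv and Trdc genes summed to 12.5 to 25.5 and 58.0 to 229 CPM in the Odc groups and 24.9 to 33.8 and 373 to 662 CPM in the Dohh groups. Of the Tcrg genes past the filter, 5 to 8 of 8 rose in the Odc table and 8 or 9 of 9 in the Dohh table, and 4 or 5 of 5 δ chain genes rose throughout. Cd3e, Cd3g, Cd247, Lck, Zap70 and Lat are used by both αβ and γδ T cells, whereas the mature γδ receptor of mice is built without CD3δ. The part of the γδ transcripts in the members' levels was not tested.

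**Figure D4:**
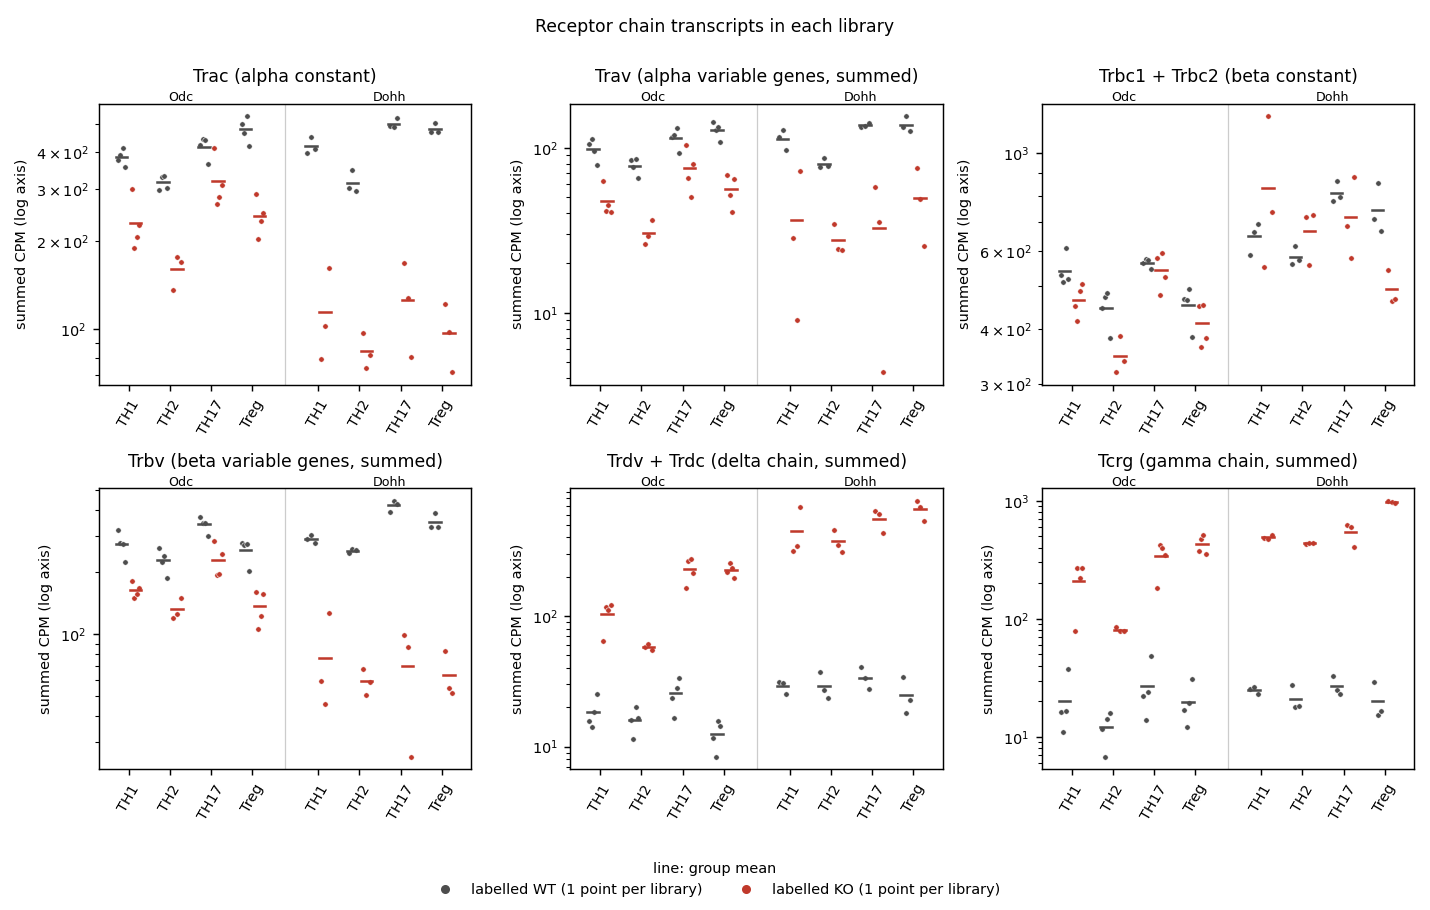
Summed CPM of receptor chain genes (y axis, log scale) in every library by subset and table, with labelled WT in grey and labelled KO in red and lines for group means. The α constant, α variable and β variable sums are lower in KO groups, the β constant sum overlaps between genotypes in all but Odc TH1 and Dohh Treg, and the δ and γ sums of every KO library lie above those of every WT library of the same subset.

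The CD3 chains fell with Odc deletion in TH1 and TH2 cells. Cd3d, the δ chain, stood at 549, 486, 601 and 414 CPM in TH1 WT libraries and 362, 262, 335 and 309 CPM in KO libraries. In TH2 it stood at 398, 412, 442 and 342 CPM in WT and 174, 228 and 189 CPM in KO. The genotypes did not overlap in either subset, and the log2 fold changes were -0.69 (SE 0.17, adjusted p = 0.00102) and -1.02 (SE 0.19, adjusted p = 4.91e-05). Cd3g, the γ chain, followed with 516, 455, 565 and 380.2 against 336, 218, 268 and 279 CPM in TH1 (log2 -0.80, SE 0.17, adjusted p = 0.000315) and 376, 341, 377 and 272 against 140.3, 194 and 166 CPM in TH2 (log2 -1.03, SE 0.19, adjusted p = 5.19e-05). WT replicate 4 was the lowest WT library each time. Cd3e, the ε chain that pairs with both, changed less, by -0.39 (SE 0.13, adjusted p = 0.0111) in TH1, where WT and KO libraries overlapped, and by -0.69 (SE 0.14, adjusted p = 0.000154) in TH2, where they did not.

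In Odc TH17 and Treg cells none of the CD3 genes passed the test. Their log2 fold changes ran from -0.10 (Cd3d, SE 0.17) to 0.27 (Cd3g in Treg, SE 0.17, adjusted p = 0.168). With the replicate block described under processing, Cd3g passed in Odc Treg. WT replicate 4 again held the lowest CD3 levels, with Cd3d at 302 CPM in TH17 and 224 CPM in Treg against 432 to 452 and 374 to 392.4 CPM in the other WT libraries.

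With Dohh deletion, Cd3g in TH17 was the only call among the CD3 genes. It stood at 418, 405 and 394 CPM in WT and 836, 660.5 and 497 CPM in KO, with no overlap (log2 0.71, SE 0.25, adjusted p = 0.0223). That call held without the libraries that stood apart (log2 0.89, adjusted p = 0.00656) and was lost without KO replicate 1 (log2 0.51, adjusted p = 0.121) or any 1 WT replicate (adjusted p = 0.0556 to 0.0625). In Treg it stood at 361, 397 and 329 against 722, 469 and 419 CPM, again without overlap, but missed the threshold (log2 0.57, SE 0.25, adjusted p = 0.0625). Over 13 alternative analyses with edgeR or DESeq2, its adjusted p in Treg ran from 0.0339 to 0.359, so the call depended on the analysis. Cd3e did not pass in any Dohh comparison, with log2 fold changes of -0.57 to -0.07 (SE 0.30). In a fit of the TH2 libraries alone it passed as lower there (log2 -0.58, adjusted p = 0.00412). Its TH1 KO libraries stood at 153, 124 and 326 CPM and its TH17 KO libraries at 289, 202 and 98.1 CPM, on both sides of the WT values of 231 to 261 and 214 to 239.9 CPM. Cd3d ranged more widely in TH1, at 448, 1126 and 779 CPM in KO against 522 to 604 CPM in WT (log2 0.51, SE 0.26, adjusted p = 0.113), and at 0.15 without replicate 2.

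Leaving out 1 TH1 library of the Dohh table moved these calls in either direction. Without KO replicate 1, Cd3d (log2 0.81, adjusted p = 0.0113), Cd3g (0.86, 0.00653), Trbc1 (0.73, 0.00786) and Trbc2 (0.53, 0.0379) passed as higher. Without KO replicate 3, Cd3e passed as lower (log2 -0.82, adjusted p = 0.0177) and Lat as higher (0.84, 0.000535). Without both libraries that stood apart, the log2 fold changes in TH1 other than that of Trac ran from -0.37 (Cd247) to 0.47 (Cd3g), and none of them passed. Those in TH17 that did not pass ran from -0.36 (Trbc1) to 0.24 (Cd3d), with Cd3e at 0.10. The ratio of Cd3g to Cd3e within a library, examined after the values were seen, was 1.31 to 2.06 in the 12 Dohh WT libraries and 2.09 to 5.38 in the 12 KO libraries, while in the Odc table it was 1.004 to 2.10 in WT and 1.11 to 1.79 in KO. The highest values were 5.38 in TH1 KO replicate 2 and 5.07 in TH17 KO replicate 3, the Dohh libraries that stood apart. The next highest, in Dohh TH17 KO replicate 2, was 3.28.

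Cd247, the ζ chain with the most ITAMs of the complex, fell in Odc TH1 and TH2 cells. TH1 libraries stood at 298, 271, 333 and 261 CPM in WT and 216, 191, 195 and 217 CPM in KO (log2 -0.51, SE 0.13, adjusted p = 0.00174). TH2 libraries stood at 310.5, 315, 308 and 264 CPM in WT and 149.9, 175 and 153 CPM in KO (log2 -0.91, SE 0.14, adjusted p = 9.64e-06). These are the subsets in which WT cells held most Cd247. The KO levels of TH2 (159 ± 13.8 CPM) lay near those of TH17 and Treg KO cells (148 ± 7.07 and 147 ± 23.8 CPM). Those of TH1 KO cells (205 ± 13.6 CPM) stayed higher. Neither TH17 (log2 0.23, SE 0.13, adjusted p = 0.155) nor Treg (-0.18, SE 0.13, 0.230) passed, the latter passing without WT replicate 4 (log2 -0.30, adjusted p = 0.0359). In the Dohh table Cd247 changed by -0.45 to -0.21 (SE 0.23) and did not pass, with KO libraries below all WT libraries in TH1 and TH2. It passed in TH2 without KO replicate 1 (log2 -0.66, adjusted p = 0.0424) and in TH17 without KO replicate 1 (log2 -0.74, adjusted p = 0.0114), while the TH17 value without the libraries that stood apart was -0.09 (adjusted p = 0.691).

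Lck, the kinase that starts the cascade, was among the least changed members. Its log2 fold change was between -0.25 and 0.13 in the Odc and between -0.41 and 0.18 in the Dohh table. It passed in TH2 of both. Odc TH2 libraries stood at 462, 492, 446 and 522 CPM in WT and 375, 416 and 418 CPM in KO (log2 -0.25, SE 0.08, adjusted p = 0.0117), which lost the call without KO replicate 2 (adjusted p = 0.0773). Dohh TH2 libraries stood at 696, 712 and 632 CPM in WT and 558, 435 and 540.2 CPM in KO (log2 -0.41, SE 0.15, adjusted p = 0.0325), a call lost without KO replicate 2, KO replicate 3, WT replicate 1 or WT replicate 2 (adjusted p = 0.0511 to 0.158).

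Zap70, the kinase recruited to the ITAMs, fell in 6 of 8 comparisons. Odc TH1 libraries stood at 268, 273, 279.9 and 264 CPM in WT and 200.2, 181, 180.4 and 176 CPM in KO (log2 -0.56, SE 0.10, adjusted p = 6.62e-05). Odc TH2 libraries stood at 323, 375, 349 and 340.4 CPM in WT and 158, 194 and 175 CPM in KO (log2 -0.98, SE 0.11, adjusted p = 1.81e-07). Neither overlapped. In Odc Treg the level went from 221 ± 37.6 to 166 ± 14.5 CPM (log2 -0.41, SE 0.10, adjusted p = 0.00111) with overlap through WT replicate 4, and in Odc TH17 the change of -0.23 (SE 0.10, adjusted p = 0.0624) missed the threshold, passing without KO replicate 3 (adjusted p = 0.0329) or WT replicate 4 (adjusted p = 0.0302). Zap70 also passed in Odc TH17 with the replicate block.

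Dohh KO cells had less Zap70 in TH2, TH17 and Treg. TH2 libraries stood at 491, 489.9 and 429 CPM in WT and 313, 222 and 213 CPM in KO (log2 -0.92, SE 0.20, adjusted p = 0.000770). TH17 went from 394 ± 15.8 to 232 ± 49.6 CPM (log2 -0.76, SE 0.20, adjusted p = 0.00270) and by -0.76 again without the libraries that stood apart (adjusted p = 0.00421). Treg went from 398 ± 36.3 to 233 ± 47.03 CPM (log2 -0.78, SE 0.20, adjusted p = 0.00222). In none of the 3 did the genotypes overlap. TH1 did not pass (log2 -0.12, SE 0.19, adjusted p = 0.613).

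Lat, the adaptor phosphorylated by ZAP-70, was the member that rose with Odc deletion. TH1 libraries stood at 278, 278, 287 and 313 CPM in WT and 322, 435, 368 and 376 CPM in KO (log2 0.38, SE 0.09, adjusted p = 0.00122). TH2 libraries stood at 227, 266, 247 and 287 CPM in WT and 403, 419 and 401 CPM in KO (log2 0.67, SE 0.10, adjusted p = 5.05e-06). No KO library of these subsets was as low as its highest WT library. TH17 libraries stood at 294, 321, 301 and 377 CPM in WT and 472, 556, 536 and 537 CPM in KO (log2 0.70, SE 0.09, adjusted p = 2.56e-06). Treg libraries stood at 311, 322, 357 and 344 CPM in WT and 579.8, 489, 534 and 519 CPM in KO (log2 0.67, SE 0.09, adjusted p = 1.04e-06). In the Dohh table Lat changed by -0.03 to 0.52 (SE 0.23) without passing, and the highest of these, in TH1, was 0.11 without replicate 2 of the KO group. The ratio of Lat to Zap70 within a library, examined after the values were seen, was 0.701 to 2.06 in Odc WT, 1.61 to 3.70 in Odc KO, 0.537 to 1.33 in Dohh WT and 0.802 to 2.51 in Dohh KO libraries.

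The effect of Odc deletion differed between subsets for 7 members, by the interaction of genotype and subset, which 34.8% of all genes passed. They were Cd3g (adjusted p = 0.000227), Cd247 (0.000331), Zap70 (0.00218), Cd3d (0.00390), Cd3e (0.00700), Lck (0.0309) and Trac (0.0468). Lat, Trbc1 and Trbc2 did not pass (adjusted p = 0.136, 0.110 and 0.601). The number of members past this test ran from 5 to 8 over 35 alternative analyses. The 7 members had their lowest log2 fold change in TH2, and for Trac that value was shared with Treg. In the Dohh table only Trbc1 passed (adjusted p = 0.0379), beside 17.9% of all genes, with log2 fold changes of 0.44, 0.50, -0.18 and -0.63 in TH1, TH2, TH17 and Treg. That count was 0 without any of 11 single libraries of the 24, 2 without TH1 KO replicate 3 and 3 without TH1 KO replicate 1.

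The Odc and Dohh effects were compared within each subset in 1 fit of both tables, each against its own WT libraries. Members past the test numbered 5 in TH1, 3 in TH2, 2 in TH17 and 2 in Treg, beside 21.9%, 18.4%, 24.5% and 29.9% of all genes. Trac passed in all 4: the Odc effect minus the Dohh effect was 1.11 (SE 0.27, adjusted p = 0.00213), 0.93 (SE 0.27, adjusted p = 0.0135), 1.54 (SE 0.27, adjusted p = 3.31e-05) and 1.29 (SE 0.27, adjusted p = 0.000198) on the log2 scale. Trac thus fell further with Dohh than with Odc deletion in each subset.

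For Cd3g and Cd3d the differences past the test had the opposite sign. That of Cd3g was -1.38 in TH1 (SE 0.31, adjusted p = 0.00109) and -0.90 in TH2 (SE 0.32, adjusted p = 0.0423), and for Cd3d -1.23 in TH1 (SE 0.31, adjusted p = 0.00391). In TH2 the Cd3g call was lost without any 1 of 8 libraries (adjusted p = 0.0571 to 0.162), namely Odc KO replicates 2 and 4, Odc WT replicates 1 to 3, Dohh WT replicates 1 and 3 and Dohh KO replicate 1. Trbc1 differed by -0.66 in TH1 (SE 0.24, adjusted p = 0.0438) and -0.96 in TH2 (SE 0.25, adjusted p = 0.00556), and Trbc2 by -0.58 in TH1 (SE 0.22, adjusted p = 0.0479). Without Dohh TH1 KO replicate 2, the TH1 differences of Trbc1 (-0.19, adjusted p = 0.577), Trbc2 (-0.25, 0.435) and Cd3d (-0.86, 0.0502) were no longer past the test. Trbc1 in TH1 was also not past the test without Odc KO replicate 2, Odc WT replicate 3, or Dohh WT replicate 1 or 2 (adjusted p = 0.0622 to 0.0923), nor Trbc2 without any 1 of 11 further libraries (adjusted p = 0.0501 to 0.0933). The Lat difference was 0.61 in TH17 (SE 0.23, adjusted p = 0.0461) and 0.66 in Treg (SE 0.23, adjusted p = 0.0250). It was not past the test in TH17 without any 1 of 15 libraries (adjusted p = 0.0503 to 0.156), among them every Dohh WT replicate and Dohh KO replicate 2, or in Treg without any 1 of 7 (adjusted p = 0.0517 to 0.0881), among them Dohh KO replicates 2 and 3. Between the tables, effects were tested only through these differences, since their libraries may have been made separately.

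The share of Trbc1 in the summed Trbc1 and Trbc2 counts averaged 42.3% to 46.4% in Odc WT groups and 39.1% to 42.0% in Dohh WT groups. The KO share differed most in Dohh TH2, at 49.5% ± 2.08 against 39.8% ± 1.89 (SD, n = 3), or 9.70 percentage points (exact two-sided permutation p = 0.1, the smallest that 3 against 3 can give; adjusted over 8 comparisons 0.4). In Odc TH2 it was 42.9% ± 1.5 (n = 3) against 46.4% ± 1.36 (n = 4), -3.53 points (exact two-sided permutation p = 0.0571, the smallest possible here, adjusted 0.4). The other 6 differences were between -1.004 and 1.37 points with exact permutation p of 0.314 to 0.9. With 3 against 3 libraries no comparison could pass.

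Outside the members, 47 genes of T cell receptor signalling were listed in groups by role, with earlier results of these data known. With Odc deletion, 24, 21, 22 and 26 of 47 fell in TH1, TH2, TH17 and Treg and 5, 7, 6 and 8 rose. With Dohh deletion, 22, 19, 27 and 25 of 46 tested fell and 5, 7, 4 and 5 rose. The median log2 fold change was -0.37, -0.28, -0.33 and -0.35, and -0.64, -0.29, -0.72 and -0.70. Over all genes, given above, 22.2% to 29.3% were lower and 25.6% to 32.9% higher in the Odc comparisons, and 21.5% to 25% lower and 23.8% to 28.4% higher in the Dohh comparisons. Among the 7 coreceptor and costimulation genes, 7, 6, 7 and 6 fell in the Dohh table, with a median of -1.52 to -2.13, and 2, 3, 3 and 5 in the Odc table, while 1 rose in Odc TH1, Odc TH2 and Dohh Treg and 0 in the others. The 10 kinases and phosphatases were mixed, with 3 to 6 lower and 2 or 3 higher in the Odc table and 1 to 5 lower and 1 to 4 higher in the Dohh table. Of 20 adaptors and effectors (19 tested in the Dohh table), 9 to 12 fell and 1 to 3 rose in each Odc comparison and 8 to 10 fell and 1 or 2 rose in each Dohh comparison. Of 10 genes that restrain the signal, 2 to 6 fell and 0 to 2 rose in the Odc table, and 3 to 6 fell and 1 or 2 rose in the Dohh table.

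Among genes that fell in at least 4 of the 8 comparisons, those with the lowest mean log2 fold change were Cd4, Fyb and Cd5. The genes that rose in at least 4 were Sla2, Csk and Vav1. Cd4, the MHC class II coreceptor that brings Lck to the receptor and the label of these cells, fell in all 8. It went from 883 ± 128 to 463 ± 129 CPM in Odc TH1 (log2 -0.93, SE 0.24, adjusted p = 0.00154) and from 842 ± 80.2 to 36.1 ± 12.2 CPM in Dohh TH1 (log2 -4.55, SE 0.26, adjusted p = 7.82e-11). In Dohh Treg it went from 941 ± 29.5 to 37.6 ± 7.37 CPM (log2 -4.65, SE 0.27, adjusted p = 5.20e-11). Fyb, which encodes the adaptor ADAP that links the receptor to integrins, also fell in all 8, by -1.05 to -2.58. Cd5, a surface protein that dampens receptor signalling, fell in 5, by -3.17 to -3.63 in the Dohh table and -0.60 in Odc Treg (SE 0.13, adjusted p = 0.000289).

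Sla2, an adaptor that limits receptor signalling, rose in 7 of 8, for example from 36.4 ± 2.41 to 149 ± 27.1 CPM in Dohh Treg (log2 2.03, SE 0.23, adjusted p = 3.54e-07), and did not pass in Odc TH2 (log2 -0.28, SE 0.20, adjusted p = 0.223). Csk, the kinase that places the inhibitory phosphate on Lck, rose in the 4 Odc comparisons, by 0.31 to 0.48, and Vav1, a guanine nucleotide exchange factor downstream of LAT, rose in 4 of 8, by 0.29 to 0.47.

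Across the 55 libraries, with each table centred on its own mean log2 CPM, the non-members whose levels were most like Cd3e were Selplg (Pearson r = 0.83), Trav13-2 (0.81), Prkacb (0.80), Arhgef1 (0.78) and Ankra2 (0.77). Among the members, Trac was closest to Cd3e (0.62), then Cd3g (0.55), Cd3d (0.47) and Lck (0.46), and Trbc1 (-0.03) and Lat (-0.07) were least alike. The tables differed, with r of Cd3e and Trbc1 at 0.51 in the Odc and -0.36 in the Dohh table. Lat ran opposite to Zap70 in the Odc table (r = -0.77 over 31 libraries) and to Cd247 in the Dohh table (r = -0.55 over 24). These are descriptions over libraries that share subset, genotype and depth.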

How the data were processed

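Per the labels and the study's methods, RNA was extracted with a column kit, sequenced as stranded mRNA libraries and processed with STAR, featureCounts, deepTools and DESeq2 on mm10; versions, annotation release and strand setting are not given in the sources used here. The deposited values are whole-number counts per Ensembl gene, not normalized, for 55 of 56 libraries. Of 47937 IDs, 47224 matched GENCODE M21 by ID, which gave symbols and positions.

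Counts were tested with edgeR 4.0.16 in R 4.3.3 (quasi-likelihood, robust, TMM, filterByExpr) in 1 fit of 8 groups per table, with Benjamini-Hochberg adjustment, an adjusted p threshold of 0.05 and a fold threshold of 2, the study's thresholds. Interactions and WT subset differences came from the same fits, and Odc against Dohh effects from a fit of 12924 genes in both tables. CPM used TMM-scaled totals and log2 CPM a prior count of 2. Exact permutation tests used scipy 1.17.1. Alternatives were RLE and upper quartile scaling, filters, DESeq2 1.42.0, pairwise fits, glmTreat, a replicate block and leaving out libraries. The scripts were tested on simulated data. The members and lists were chosen with earlier results of these data known. Genes outside the members were named by rule: the 3 that rose and the 3 that fell most by mean log2 fold change among pathway genes past the test in the same direction in at least 4 of 8 comparisons, and the 5 most correlated with Cd3e. The 2 Dohh libraries that stood apart were chosen after seeing the data.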

Additional observations from a re-analysis of the deposited data

Results flagged for a closer look

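Within Odc groups of 4 libraries, 6 of 70 member-by-group sets held a library far from the others by Dixon's test, which chance would give in about 1 of 20 sets. WT replicate 4 was low for Cd3d in TH17 (302 CPM, next 432) and Treg (224 CPM, next 374) and for Cd247 in TH2 (264 CPM, next 308). KO replicate 1 was high for Lck in TH17 (637 CPM, next 590.2) and low in TH1 (467 CPM, next 578), and KO replicate 3 was high for Zap70 in Treg (188 CPM, next 161). Groups of 3 were not tested.

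The Odc effect differed between subsets, by the interaction test in edgeR, for Lck (adjusted p = 0.0309), Cd3g (0.000227), Cd247 (0.000331), Zap70 (0.00218), Cd3e (0.00700), Cd3d (0.00390) and Trac (0.0468), and the Dohh effect for Trbc1 (0.0379).

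The Odc effect minus the Dohh effect passed the test in TH1 for Cd3g (log2 -1.38), Cd3d (-1.23), Trbc1 (-0.66), Trbc2 (-0.58) and Trac (1.11), in TH2 for Cd3g (-0.90), Trbc1 (-0.96) and Trac (0.93), in TH17 for Lat (0.61) and Trac (1.54), and in Treg for Lat (0.66) and Trac (1.29).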

How the results depend on the processing

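Of 3530 recomputed values of single members, 3418 stayed on their side of the threshold, 79 lost and 33 gained a call, and 57 changed sign, none of them past the test in either fit. The cause of changed calls was not tested. The share of all genes called in these alternatives is not given. Counts of members under them, here, above and below, thus say nothing of the members against other genes. Odc TH2 members past 2-fold numbered 4 with upper quartile scaling, with no low-count filter and with a mean count of at least 50, and 0 with glmTreat. In Odc Treg, 1 was past 2-fold with RLE size factors, with no filter, with only the 2 groups compared and with DESeq2. At an adjusted p under 0.01, 1 member passed in Odc TH17 and 2 in Dohh Treg. DESeq2 passed 3 in Dohh TH1, and the fit of only the 2 groups 6 in Dohh TH2 (Cd3e and Cd247 added as lower, Trbc1 as higher). For the Odc and Dohh difference, 3 members passed in TH1 with upper quartile scaling and 1 in TH17 with RLE size factors or a mean count of at least 50. Without both Dohh libraries that stood apart, 6 members differed between Dohh WT subsets and 3 between effects in TH1. Scaling moved the median member by -0.08 to 0.10 on the log2 scale at most.

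Leaving out 1 library gave 0 to 4 members past 2-fold in Odc TH2, 0 to 1 in Odc Treg and 1 to 2 in Dohh TH2. Past the test were 1 to 3 in Odc TH17, 1 to 5 in Dohh TH1 and 2 to 4 in Dohh Treg, 0 to 3 for the Dohh interaction, 2 to 4 for Dohh WT subsets, and 2 to 6, 1 to 4 and 1 to 2 for the Odc and Dohh difference in TH1, TH17 and Treg. Over all 14 alternatives of any kind, Dohh Treg held 2 to 5 members past the test.

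Same-numbered WT and KO libraries of a subset correlated in their deviations from the group means by -0.26 to 0.42 in the Odc and -0.14 to 0.25 in the Dohh table (15 and 12 pairs), so the numbers did not pair WT with KO. Same-numbered libraries of other subsets and the same genotype correlated at a median of 0.46 (45 Odc pairs) and 0.21 (36 Dohh pairs), against -0.10 and -0.07 for different numbers, and the tests between subsets treated libraries as independent. With the replicate block, 0 members were past 2-fold in Odc TH2, and 3 rather than 2 passed in Odc TH17 (Zap70 added) and 4 rather than 3 in Odc Treg (Cd3g added). With 3 Dohh libraries a group, log2 differences between KO and WT of up to 0.57 missed the threshold.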
